A study of Mus musculus with 6 samples.

Results

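The genes described here are linked to sperm pH, membrane potential and bicarbonate, and the part of each in mouse sperm was not tested. They were chosen by name, as a list of 10 genes, and every probe set that the platform annotation gives to one of them alone was used. That gave 14 probe sets for 9 genes, of the 18193 genes with a single-gene probe set on the array: Slc26a3, Slc26a6, Slc26a8, Car2, Car4, Adcy10, Atp1a4, Kcnu1 and Hvcn1. No probe set matched the tenth gene, the sperm-specific sodium-proton exchanger Slc9c1, under its current or older symbols, and it is not analysed here. Expression was measured in freshly dissected testis of adult mice with 6 Affymetrix whole-genome arrays, 1 per sample: 3 wild type and 3 transgenic for a constitutively active mutant of DREAM. Both groups shared the hybrid strain background, C57BL/6 x CBA. DREAM, the product of Kcnip3 and also known as KChIP3, binds calcium and, in its calcium-free state, acts as a transcriptional repressor. The promoter that drives the transgene, the number of founder lines and the age and number of mice per array are not given in the sources used here. The submitters describe the replicates of each group as biologically independent.

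Sperm leave the epididymis acidic and quiescent and are activated in the female tract, where bicarbonate enters the cell and the cytoplasm turns alkaline. Bicarbonate is carried by anion exchangers of the SLC26 family and interconverted with carbon dioxide by carbonic anhydrases, and it switches on the soluble adenylyl cyclase Adcy10, whose cAMP drives motility and capacitation. The alkaline pH opens the potassium channel Kcnu1 (SLO3), which hyperpolarises the membrane. The sodium pump isoform Atp1a4 keeps the sodium gradient on which sodium-proton exchangers run. The CatSper calcium channel of the flagellum is opened by the same alkaline pH, which ties these genes to the calcium mobilisation named in the study's title.

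Values are log2 intensities per probe set after the authors' RMA normalisation, so a difference of 1 is a doubling. Probes bind with different strength, so a probe set's percentile of the array says only whether it was bright or dim and does not order the genes by expression, and RMA gives no detection call. Whole testis was measured, so fewer cells of a type and less RNA per cell cannot be told apart. Wild type replicate 2 stood apart from the other 5 arrays, at 42.2 on a first principal component that held 38.9% of the variance, where the others lay between -23.3 and 5.27. The array median was between 5.99 and 6.08. Spermatid markers were bright in both groups: their linear intensities, with 1 brightest probe set for each of 10 genes, summed to between 110268 and 113248 in wild type and between 111034 and 114261 in transgenic testis. Of the genes described here, the germ cell genes Atp1a4, Slc26a8, Adcy10 and Kcnu1 each had a probe set at percentile 92.0 or higher of the array by mean intensity.

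DREAM is known to bind a downstream regulatory element (DRE) whose core is GTCA. The start-site regions of Car4, Slc26a3 and Adcy10 are shown because these are the genes, beside Car2, in which a probe set had wild-type and transgenic arrays that did not overlap. Each is a RefSeq window of build GRCm38.p6, from 250 bases before to 50 bases after the annotated start, written 5′ to 3′ on the gene's strand. Capitals mark GTCA or its reverse complement TGAC. The Car4 window is chr11:84957504-84957803, that of Slc26a3 is chr12:31437969-31438268 and that of Adcy10 is chr1:165484933-165485232, all on the plus strand.
Car4: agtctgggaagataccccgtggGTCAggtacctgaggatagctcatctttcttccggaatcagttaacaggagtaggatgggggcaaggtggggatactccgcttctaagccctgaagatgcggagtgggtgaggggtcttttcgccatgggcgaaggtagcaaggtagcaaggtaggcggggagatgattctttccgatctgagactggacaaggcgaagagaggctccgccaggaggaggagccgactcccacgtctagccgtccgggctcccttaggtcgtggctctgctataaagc
Slc26a3: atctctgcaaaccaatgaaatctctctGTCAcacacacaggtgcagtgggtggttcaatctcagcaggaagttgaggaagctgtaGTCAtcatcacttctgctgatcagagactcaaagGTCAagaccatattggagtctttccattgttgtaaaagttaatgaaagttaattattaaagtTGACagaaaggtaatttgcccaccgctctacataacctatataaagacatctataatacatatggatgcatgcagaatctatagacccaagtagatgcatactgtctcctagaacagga
Adcy10: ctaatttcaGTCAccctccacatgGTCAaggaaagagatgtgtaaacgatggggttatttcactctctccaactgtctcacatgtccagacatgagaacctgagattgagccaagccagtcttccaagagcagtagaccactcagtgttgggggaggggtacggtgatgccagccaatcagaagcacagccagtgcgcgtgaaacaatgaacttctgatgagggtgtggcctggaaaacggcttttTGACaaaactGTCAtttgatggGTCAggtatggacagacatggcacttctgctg
The Car4 window held 1 match, that of Slc26a3 held 4 and that of Adcy10 held 5. At least 1 match was present in 85.2% of all 32851 windows in the table, at least 4 in 17.3% and at least 5 in 7.48%. Windows were found for 7 of the 10 genes. For Car2, Kcnu1 and Hvcn1 no window was available, so the start-site region of Car2 is not shown. Atp1a4 had 3 matches, and Slc9c1, Slc26a6 and Slc26a8 had 1 each. The short motif TGACG of the cyclic AMP response element, which contains TGAC and was searched on both strands, was in 0 of the 7 windows and in 20.8% of all windows. A match of so short a motif is a description of the letters and not a binding site.

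Between the genotypes, 0 of the 14 probe sets passed the test (limma, Benjamini-Hochberg over 45037 probe sets, adjusted p from 0.105 to 0.993). Across the array 0.444% of probe sets passed at an adjusted p under 0.05, 0.171% higher and 0.273% lower in the transgenic samples. An unadjusted p under 0.05 was reached by 3 of the 14, those of Car2, Car4 and Slc26a3, each lower in transgenic testis, against 6.69% of all probe sets, 3.75% higher and 2.94% lower. Groups that did not overlap were seen in 4 of the 14, again all lower (Car2, Car4, Slc26a3 and Adcy10), against 11.3% of all probe sets, 6.35% higher and 4.95% lower. The median difference was -0.07 over the 14 probe sets and 0.02 over all probe sets. Of the 14, 6 lay above 0 and 8 below.

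**Figure D1:**
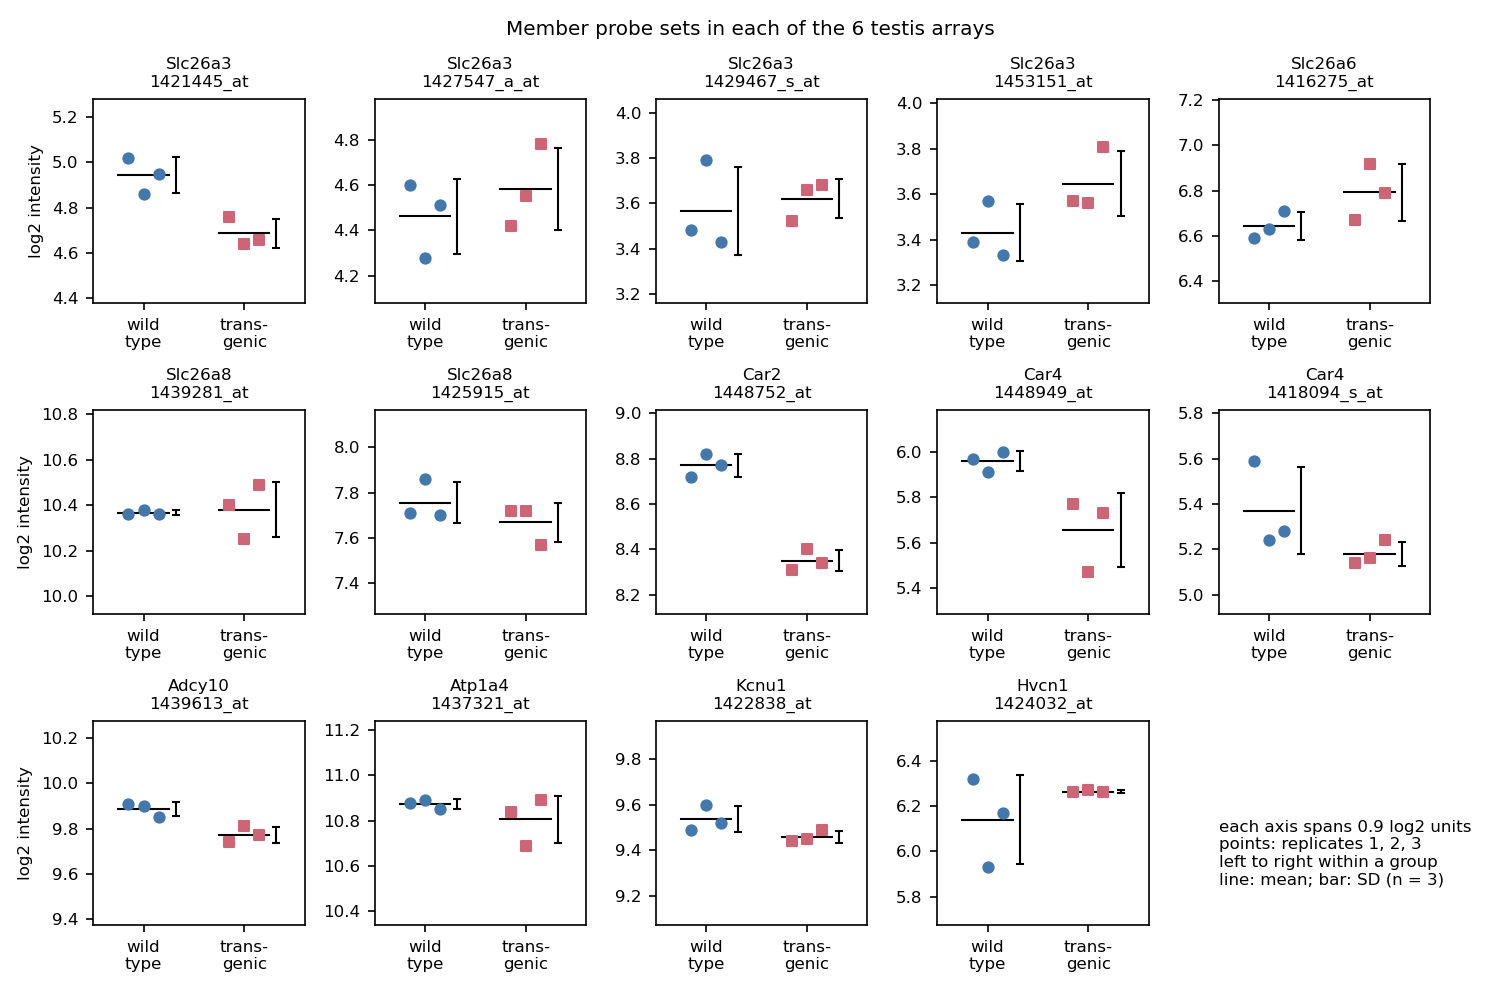
Log2 intensity (vertical axis, 0.9 log2 units in every panel) of the 14 probe sets in the 3 wild-type (circles) and 3 transgenic (squares) arrays, with the group mean (line) and SD (bar, n = 3). The groups are separated in Car2, in one probe set each of Car4 and Slc26a3, and by 0.04 in Adcy10, and overlap in the other 10 panels.

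The carbonic anhydrases gave the furthest differences below 0 among the 14 probe sets, without passing the threshold. Car2 encodes the abundant cytosolic enzyme. Its probe set read 8.72, 8.82 and 8.77 in wild-type replicates 1 to 3 and 8.31, 8.40 and 8.34 in transgenic replicates 1 to 3. Every transgenic array lay below every wild-type array, with 0.32 between the nearest pair, while the replicates of a group lay within 0.10 of each other. The means were 8.77 ± 0.05 and 8.35 ± 0.05 (SD, n = 3), a log2 difference of -0.42 (SE 0.09, 95% interval -0.61 to -0.23, adjusted p = 0.105). That is an intensity 1.34-fold lower, with an interval from -34.6% to -14.6%. The unadjusted p was 0.000774. Car2 missed the threshold over all probe sets. It passed where all probe sets of a gene were averaged and 18193 genes were tested in place of 45037 probe sets (adjusted p = 0.0336). Car2 has only 1 single-gene probe set, so averaging left its difference at -0.42, while the SE was 0.07 in that fit.

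The call of Car2 depended on the setting, though its size did not. The difference ran from -0.45 to -0.40 when each array was left out in turn (adjusted p from 0.101 to 0.451). With other normalisations, filters and variance models on all 6 arrays it ran from -0.44 to -0.42. RNA integrity was read from the Gapdh control probe sets, as the log2 excess of the 3′ over the 5′ end. This excess was 0.11 ± 0.05 (SD) for the wild-type arrays and 0.27 ± 0.06 for the transgenic ones, without overlap (exact permutation p = 0.1, two-sided, the smallest that 3 against 3 arrays allow). The same measure for beta-actin was 0.47 ± 0.05 and 0.50 ± 0.03 (exact permutation p = 0.6). With the Gapdh excess as a covariate, a choice made after the data were seen, Car2 read -0.37 (SE 0.17, adjusted p = 0.475). This excess differed between the groups without overlap, so it and genotype cannot be well separated in such a fit.

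Car4 encodes the membrane-anchored enzyme that faces the outside of the cell and is known from sperm as well as from capillaries. The brighter of its 2 probe sets read 5.97, 5.91 and 6.00 in wild type and 5.77, 5.47 and 5.73 in transgenic testis. All 3 transgenic arrays were below the wild-type arrays, transgenic replicate 2 furthest. The log2 difference was -0.30 (SE 0.10, 95% interval -0.54 to -0.07, adjusted p = 0.53), and without transgenic replicate 2 it was -0.21 (adjusted p = 0.99). The other probe set, whose _s_at suffix marks probes shared between transcripts, read 5.59, 5.24 and 5.28 in wild type and 5.14, 5.16 and 5.24 in transgenic testis. Here the groups met at 5.24, and wild type replicate 1 stood above the rest. Its difference was -0.19 (SE 0.11, 95% interval -0.44 to 0.06, adjusted p = 0.853), and it was -0.08 without wild type replicate 1 and -0.49 (adjusted p = 0.422) with the Gapdh excess as a covariate. Both probe sets of Car4 therefore read lower, neither past the threshold, and both lay below the median intensity of the array.

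Levels of cell type markers are given beside these readings. No list was tested as a whole, and the part of these cell types in the Car2 and Car4 readings was not tested. A gene is counted as above 0 where its brightest probe set was on average higher in transgenic than in wild-type testis. Summed linear intensities of 8 spermatocyte markers lay between 5696 and 5939 in wild type and between 4817 and 5208 in transgenic testis, with 0 of the 8 genes above 0 and 0 passing. Those of 10 Sertoli cell markers lay between 10086 and 10748 and between 8766 and 9310, with 4 of 10 above 0 and 1 passing (Cst9). The median difference over all 17 Sertoli probe sets was -0.02 and the lowest was -2.35, and a linear sum can be moved by a single gene. Erythroid markers, of a cell type rich in Car2, overlapped at 684.6 to 786.9 and 656.7 to 723.8 (2 of 6 above 0, 0 passing). Endothelial markers, of a cell type known for Car4, overlapped at 435.6 to 470.7 and 468.3 to 476.8 (7 of 8 above 0, 0 passing). Epididymal markers overlapped at 340.3 to 500.6 and 325.1 to 361.8 (5 of 7 above 0, 1 passing, lower in transgenic testis). Over all 8 epididymal probe sets the lowest difference was -1.46 and the highest was 0.10. Peritubular myoid markers overlapped at 3583 to 3718 and 3399 to 3981 (2 of 6 above 0, 0 passing). Leydig cell markers were 4605 to 5421 and 5595 to 6400 (4 of 5 above 0, 1 passing). Over all 9 Leydig probe sets the median difference was 0.11 and the highest was 1.48. Macrophage markers were 1006 to 1106 and 1139 to 1246 (8 of 8 above 0, 0 passing). Adipose markers were 490.7 to 529.8 and 548.7 to 624.2 (6 of 6 above 0, 0 passing). With log2 intensities and no detection call, no marker has an intensity of 0.

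The bicarbonate carriers had 0 of 7 probe sets past the threshold. Slc26a8 encodes the testis anion transporter TAT1, a germ cell protein that associates with CFTR and is needed for sperm motility. Its brighter probe set read 10.36, 10.38 and 10.36 in wild type and 10.40, 10.25 and 10.49 in transgenic testis. The wild-type arrays were within 0.02 of each other and the transgenic arrays lay on both sides of them. The difference was 0.01 (SE 0.09, adjusted p = 0.993), with a 95% interval of -12.8% to 16.8% in intensity. Its sign turned in some settings (-0.01 after centring each array on its median). The other probe set read 7.71, 7.86 and 7.70 against 7.72, 7.72 and 7.57, a difference of -0.09 (SE 0.09, adjusted p = 0.959), which was -0.035 without wild type replicate 2 and -0.037 without transgenic replicate 3. Neither probe set of Slc26a8 separated the groups.

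Slc26a6 encodes an exchanger of chloride, bicarbonate and oxalate that is widely made in epithelia and also found in sperm. It read 6.59, 6.63 and 6.71 in wild type and 6.67, 6.92 and 6.79 in transgenic testis. The transgenic arrays were on average higher, but replicate 1 lay inside the wild-type range, and the difference was 0.15 (SE 0.10, 95% interval -0.07 to 0.37, adjusted p = 0.889), and 0.087 without transgenic replicate 2. Slc26a3 encodes a chloride-bicarbonate exchanger best known from the colon. Its 4 probe sets were all dim, at percentile 25.5 or lower of the array, and did not point one way. The brightest read 5.02, 4.86 and 4.95 in wild type and 4.76, 4.64 and 4.66 in transgenic testis, with the groups apart by 0.10. Its difference was -0.26 (SE 0.09, 95% interval -0.46 to -0.05, adjusted p = 0.558). The other 3 had differences of 0.12, 0.05 and 0.22 (adjusted p = 0.956, 0.98 and 0.8). The first was 0.022 without transgenic replicate 3 and 0.028 without wild type replicate 2, the second turned to -0.015 without wild type replicate 3, and the last was 0.135 without transgenic replicate 3. The average of the 4 gave 0.033 (adjusted p = 0.981), so Slc26a3 has no single direction here.

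**Figure D2:**
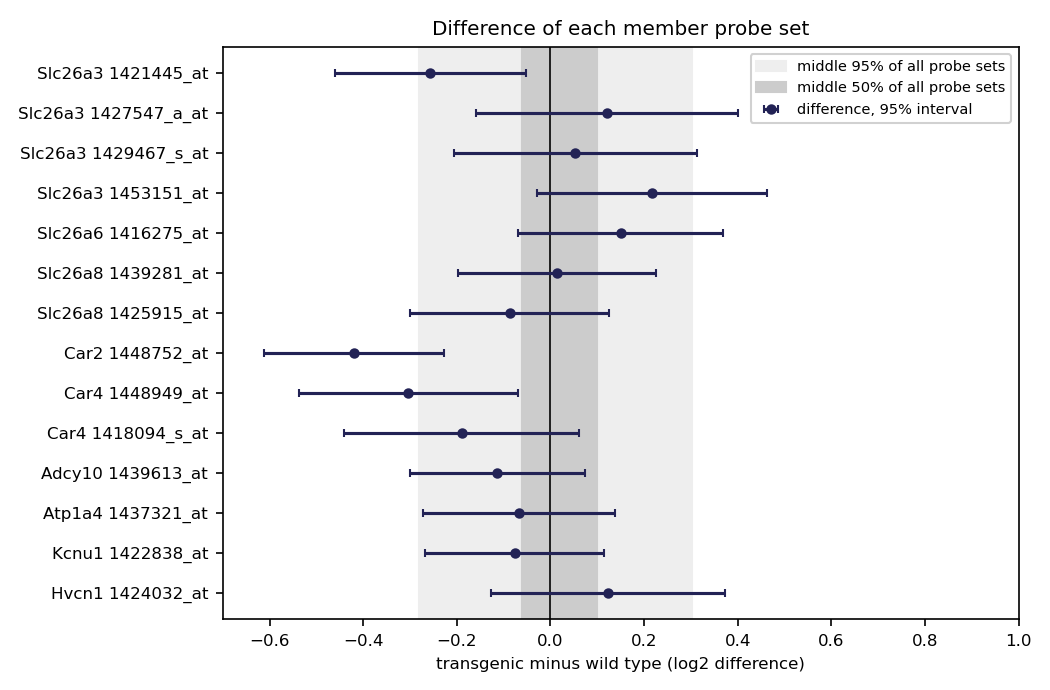
Log2 difference, transgenic minus wild type, of each of the 14 probe sets (points, with 95% intervals from limma), over the middle 95% (-0.28 to 0.30, light) and the middle 50% (-0.06 to 0.10, dark) of the differences of all 45037 probe sets. Car2 at -0.42 and the brighter Car4 probe set at -0.30 lie outside the light band, and the other 12 inside it.

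Adcy10, the bicarbonate sensor of this system, read 9.91, 9.90 and 9.85 in wild type and 9.74, 9.81 and 9.77 in transgenic testis. The transgenic arrays were all slightly lower, by 0.04 at the nearest pair. The means were 9.89 ± 0.03 and 9.77 ± 0.04 (SD, n = 3) and the difference was -0.11 (SE 0.08, 95% interval -0.30 to 0.07, adjusted p = 0.915). The SE was larger than these SDs alone would give, because limma draws each variance towards that of all probe sets. The interval, in intensity, ran from -18.8% to 5.29%. Without any one array the difference was between -0.13 and -0.10.

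The genes of membrane potential and proton flow did not separate the groups. Atp1a4, the sodium pump alpha subunit of the sperm flagellum, read 10.88, 10.89 and 10.85 in wild type and 10.84, 10.69 and 10.89 in transgenic testis. Transgenic replicate 2 was low and the other two lay beside the wild-type arrays, and the difference was -0.07 (SE 0.09, 95% interval -0.27 to 0.14, adjusted p = 0.968), and -0.0083 without transgenic replicate 2. Kcnu1, the pH-gated potassium channel of sperm, read 9.49, 9.60 and 9.52 in wild type and 9.44, 9.45 and 9.49 in transgenic testis. The groups met at 9.49, and the difference was -0.08 (SE 0.08, 95% interval -0.27 to 0.11, adjusted p = 0.96), and -0.045 without wild type replicate 2. In intensity these intervals were -17.1% to 10.04% for Atp1a4 and -16.9% to 8.25% for Kcnu1. Hvcn1 encodes the voltage-gated proton channel, through which acid leaves the cell and which is also strongly made by immune cells. It read 6.32, 5.93 and 6.17 in wild type and 6.26, 6.27 and 6.26 in transgenic testis. The 3 transgenic arrays were nearly equal and lay within the wild-type spread, of which replicate 2 was the low end. The difference was 0.12 (SE 0.11, 95% interval -0.13 to 0.37, adjusted p = 0.94), and 0.02 without wild type replicate 2.

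Related transporters, channels and enzymes were read from 7 lists, leaving out the genes above. They held 134 probe sets of 62 genes, of which 0 passed and 7 had an unadjusted limma p under 0.05, 3 higher and 4 lower. Their median difference was 0.02, as over all probe sets. Among 14 other carbonic anhydrase genes with 27 probe sets, 0 passed, 2 had an unadjusted p under 0.05 and the median was 0.03. Car3, a muscle and fat isoform, was the furthest from 0 of all 134 and in the opposite direction to Car2 and Car4. That probe set read 5.95, 4.83 and 5.41 in wild type and 7.44, 6.07 and 6.69 in transgenic testis, a difference of 1.34 (SE 0.35, adjusted p = 0.26). The lowest transgenic array was above the highest wild-type array, and the replicates of each group differed by more than 1 log2 unit. Its other 3 probe sets read 0.30, -0.06 and -0.0033 (adjusted p = 0.854, 0.983 and 0.995). The summed adipose markers, given above, lay between 490.7 and 529.8 in wild type and between 548.7 and 624.2 in transgenic testis with 0 of 6 genes passing, and their part in the Car3 reading was not tested. Car8, a family member without enzyme activity, read -0.32 (SE 0.14, adjusted p = 0.729), and its other 2 probe sets read 0.07 each.

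**Figure D3:**
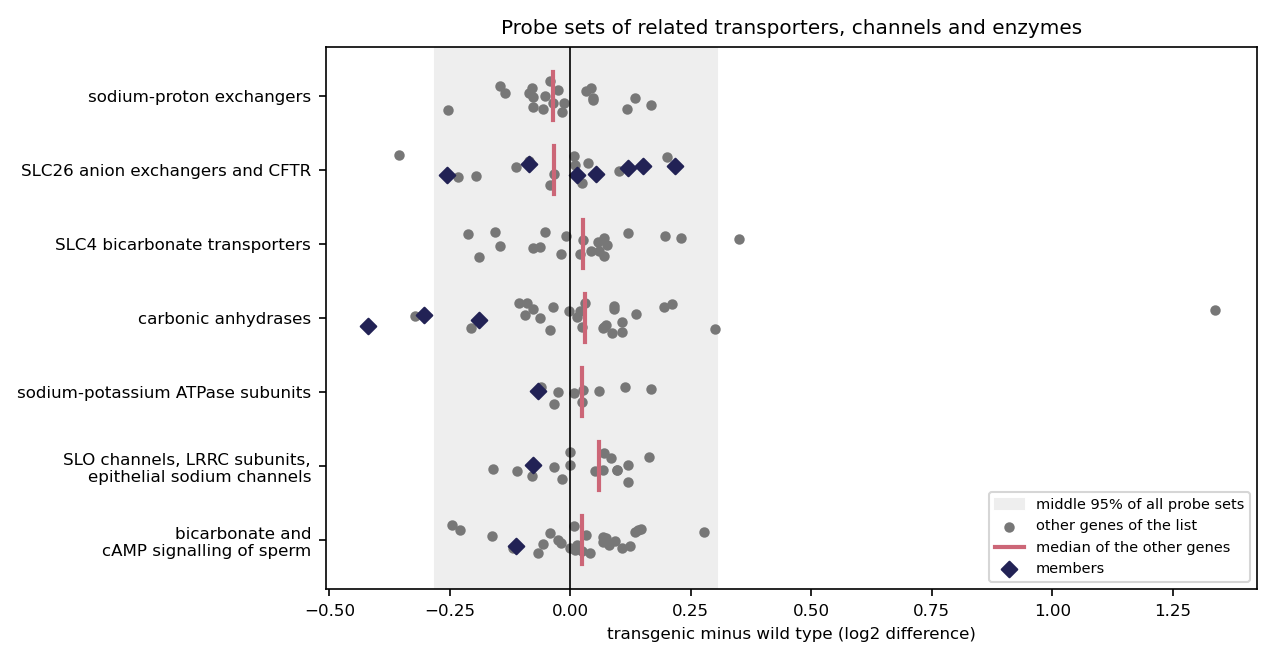
Log2 difference, transgenic minus wild type (horizontal axis), of the 134 probe sets of related genes in 7 lists (grey points, red line at their median), with the genes described above as diamonds and the middle 95% of all probe sets shaded. The medians lie between -0.04 and 0.06, and a probe set of Car3 at 1.34 is the furthest from 0.

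Of the other SLC26 exchangers with CFTR (8 genes, 13 probe sets), 0 passed, 2 had an unadjusted limma p under 0.05 and the median was -0.03. Slc26a7 read 6.91, 6.95 and 6.79 in wild type and 6.67, 6.61 and 6.30 in transgenic testis, lower in all 3 transgenic arrays (difference -0.36, SE 0.12, adjusted p = 0.473), and 0.04 with its other probe set. Slc26a10 read -0.23 (adjusted p = 0.72). The sodium-proton exchangers (9 genes, 21 probe sets) had 0 passing, 1 with an unadjusted p under 0.05 and a median of -0.04. That one was a probe set of Slc9a8, an exchanger of the Golgi that is also needed for the acrosome, at -0.25 (SE 0.09, adjusted p = 0.612), while its other 3 read -0.08, -0.05 and -0.02. Slc9a2 read 0.17 (adjusted p = 0.866). The SLC4 bicarbonate transporters (9 genes, 21 probe sets) had 0 passing, 1 with an unadjusted p under 0.05 and a median of 0.03. The electrogenic cotransporter Slc4a4 read 0.35 with that probe set (SE 0.11, adjusted p = 0.468) and between -0.02 and 0.08 with its other 4, and Slc4a11 read 0.23 (adjusted p = 0.848) and -0.08.

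The other sodium pump subunits (4 genes, 9 probe sets) had 0 passing and 0 with an unadjusted limma p under 0.05, with a median of 0.02. Atp1b1, a beta subunit, read 0.17 (adjusted p = 0.799), and its other 4 probe sets were between -0.06 and 0.06. Atp1b2 read 0.11 (adjusted p = 0.942) and -0.03 with its other probe set. The other SLO channels with LRRC subunits and epithelial sodium channels (9 genes, 16 probe sets) had 0 passing and 0 with an unadjusted limma p under 0.05, with a median of 0.06. Kcnt1, a sodium-activated potassium channel, read 0.16 (adjusted p = 0.829), and -0.11 and 0.00 with its other 2 probe sets. Lrrc52, the auxiliary subunit that lets Kcnu1 open in sperm, read -0.16 with a dim probe set (adjusted p = 0.899) and -0.08 with a bright one (adjusted p = 0.963). Around Adcy10, the list held protein kinase A subunits, anchoring proteins and Cabyr (9 genes, 27 probe sets). It had 0 passing, 1 with an unadjusted limma p under 0.05 and a median of 0.02. Akap3, an anchoring protein of the sperm fibrous sheath, read 12.96, 13.02 and 12.95 in wild type and 13.24, 13.27 and 13.25 in transgenic testis with that probe set, whose _x_at suffix marks probes that may cross-hybridise (difference 0.28, SE 0.08, adjusted p = 0.388). It read 0.07 with its other one (adjusted p = 0.967). Prkar1b, a regulatory subunit of protein kinase A, read -0.25 (adjusted p = 0.899), and between -0.03 and 0.15 with its other 4 probe sets.

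**Figure D4:**
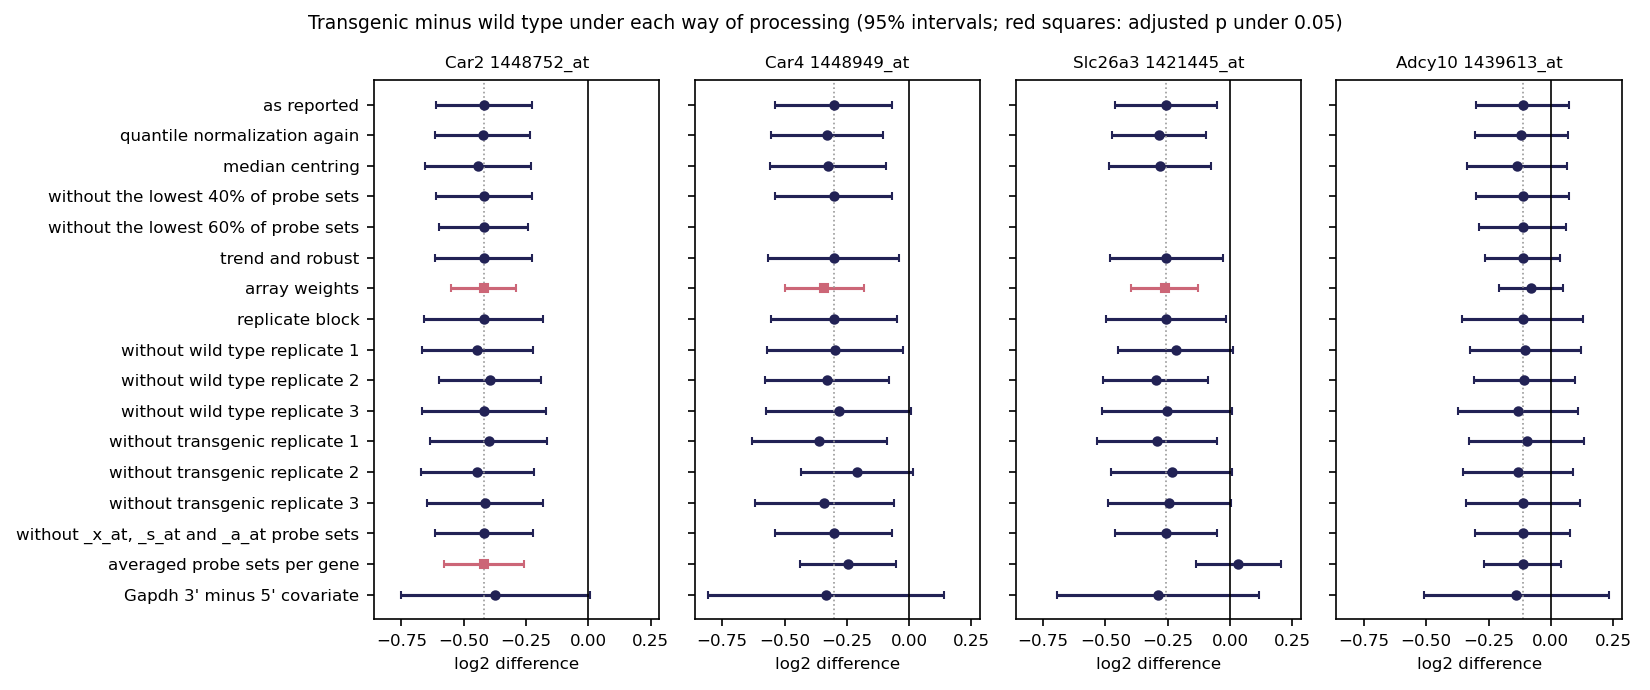
Log2 difference, transgenic minus wild type, with its 95% interval, of the Car2, Car4, Slc26a3 and Adcy10 probe sets whose groups did not overlap, for the values as reported and under each alternative that gave a value. Car2 stays between -0.45 and -0.37, with an adjusted p under 0.05 (red squares) with array weights and with averaged probe sets only.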

How the data were processed

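Per the labels' protocols, total RNA of whole testis was extracted with TRIzol and a column kit, and biotin-labelled cRNA was hybridised to 1 array per sample. The authors deposited a log2 intensity for each probe set, to 2 decimals. RMA and the affy package are named in the submitters' processing notes, without version or parameters, and the genome build is not given in the sources used here. Of 45101 probe sets, 64 controls were left out and 45037 tested, without a filter. Genes came from the platform annotation (34945 probe sets with 1 gene, 932 with several, 9160 with none), updated through RefSeq GRCm38.p6 by gene identifier (34741 matched).

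The comparison, transgenic minus wild type, used limma 3.58.1 (R 4.3.3) with lmFit and eBayes, two-sided, Benjamini-Hochberg over all 45037, threshold 0.05. The fit was also run on simulated data, with planted differences larger than any of the 14 probe sets showed. That run does not show how well smaller differences would be found. The number of arrays, 3 per group, limits precision. All 14 single-gene probe sets of the 9 genes that had one were described. In each related list, members past the threshold were to be named, or else the 2 of smallest p. The genes and lists were chosen with earlier results of these data known. Markers of 10 cell types were summed over the brightest probe set per gene. Alternatives were other normalisations, intensity filters, variance models, array weights, a replicate block, leaving out arrays, probe set classes, averaging and a looser threshold. Added later was the Gapdh covariate.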

Additional observations from a re-analysis of the deposited data

How the results depend on the processing

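The 14 probe sets gave 204 values under the alternatives, of which 190 kept both their direction and their side of the threshold, 9 turned sign and 5 came to pass. The count of probe sets called among the 14 was 0 in the report and in every alternative except array weights (4: Car2, Car4 and one probe set of Slc26a3 lower, another higher) and averaging per gene (1 of 9 genes, Car2, adjusted p = 0.0336); it was 0 to 0 without each array in turn. The array weights gave wild type replicate 3 a weight of 19.1, against at most 0.812 for the other 5 arrays, and their estimation stopped before it converged. Under them Car2 read -0.42 (adjusted p = 0.00258), Car4 -0.34 (0.0195) and Slc26a3 -0.26 (0.027) and 0.31 (0.0278). The count over the whole array was 200 in the report, 306 with trend and robust variances, 4160 with array weights, 117 with the replicate block, 317 at an adjusted p under 0.1 and 18 with the Gapdh covariate. Without each array it ran from 70 to 429, the latter without wild type replicate 2. Of the 9 values whose sign turned, Slc26a8's brighter probe set read -0.01 after median centring, -0.037 averaged and -0.059 with the Gapdh covariate, and from -0.042 (without transgenic replicate 3) to 0.078 without each array, and its other read 0.13 with that covariate. Hvcn1 read -0.12 and a Slc26a3 probe set -0.36 with the covariate (0.12 in the report), another Slc26a3 probe set from -0.015 (without wild type replicate 3) to 0.165 without each array, and the average of Slc26a3 was 0.033, against -0.26 for its brightest probe set. The causes were not tested. Same-numbered arrays of the 2 groups were not paired by the labels, and their deviations from the group means correlated at -0.32, -0.07 and -0.01. With the replicate block no probe set of the 14 passed (Car2 adjusted p = 0.35). Filters on dim probe sets kept 9 and 7 of the 14. The 6 dimmest, of Car4 and Slc26a3, lay below the array's median intensity and are not shown to be above background.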
